A study of Rattus norvegicus with 3 samples.

Results

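The proteasome is the large protease that degrades ubiquitin-tagged proteins in the cytosol and nucleus. Its barrel-shaped core particle is built from rings of alpha subunits (Psma genes) and rings of beta subunits (Psmb genes), and the inner beta rings carry the protease sites. A regulatory cap of ATPases (Psmc genes) and non-ATPase subunits (Psmd genes) binds tagged proteins, removes the ubiquitin, unfolds them and feeds them into the core. Dedicated chaperones put core and cap together, and other activators (Psme genes) can bind the core in place of the cap. In macrophages the complex also supplies peptides for presentation, and interferon can exchange its catalytic subunits for immunoproteasome forms.

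The genes described here were all those whose array symbol starts with Psma, Psmb, Psmc, Psmd, Psme, Psmf or Psmg, leaving out the immunoproteasome subunits Psmb8, Psmb9 and Psmb10. They were 45 genes with 54 probes, out of 15930 named genes with 20932 probes. They comprised 16 core subunits, 17 cap subunits, 6 assembly factors, 5 genes for other activators and an inhibitor, and Psmc3ip. The last shares only the start of its symbol, since it encodes a meiotic recombination factor. The assembly factor Psmg3 was on the gene list but under no array symbol.

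The samples were NR8383 cells, an established line of rat alveolar macrophages. For 24 h they had been cultured with CNT-1 or CNT-2, which are 2 kinds of single-wall carbon nanotubes free of impurities. Each was given at 0.1 mg/mL in 1 mg/mL bovine serum albumin. The control is described in the labels both as untreated and as a solvent control with albumin, so whether it received albumin is not settled. There was 1 deposited column per group (control, CNT-1 and CNT-2), and all 3 carry the replicate number 4. No difference below therefore has a replicate check and no p-value was calculated. Words such as "higher" refer to these columns and not to what other cultures would give.

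The values are on a log scale, presumed to be log2, and each probe is centred on a baseline that no source used here names. A column value is therefore a distance from that baseline and not an expression level, and levels cannot be compared between genes. For the same reason the cell type could not be checked from the levels of its markers. Of 13 measured alveolar macrophage markers, 7 lay above control in CNT-1 and 7 in CNT-2, with medians of 0.064 and 0.073, where 42.1% and 53.5% of all genes did. With CNT-2 these markers lay far from control on both sides, 4 at least 0.5 higher and 3 at least 0.5 lower. The highest were Fabp4 at 3.96 and Itgam at 3.46 and the lowest Mrc1 at -2.24 and Csf1r at -1.25. Of 23 markers of other lung and blood cells, 3 and 9 lay above control, with medians of -0.22 and -0.28. By the labels the samples are a cell line and not lung tissue, so these markers are not read as shares of cell types. The part of the makeup or state of the cultures in the proteasome values was not tested. Fewer cells with a transcript and less of it per cell cannot be told apart in these arrays. The only technical spread at hand is that over the probes of a gene. Its median over 3907 genes with several probes was 0.076 in the CNT-1 comparison and 0.19 in the CNT-2 comparison. It leaves out variation between arrays and between cultures. Of the proteasome genes, 37 had 1 probe, 7 had 2 and 1 had 3.

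In the deposited values of CNT-2 the cap subunits had the highest class median, the core subunits lay less far above control, and the assembly factors lay on both sides of it. The median difference from control was 0.41 over the 17 cap subunits, 0.17 over the 16 core subunits and 0.23 over the 6 assembly factors, against 0.041 over all 15930 genes. If the scale is log2, the cap median is a 1.32-fold and the core median a 1.12-fold difference. Of the 45 genes, 35 lay above control, or 77.8%, where 53.5% of all genes did. By class these were 16 of 17 in the cap, 13 of 16 in the core and 4 of 6 among assembly factors. The differences were small for this comparison, in which 23.4% of all genes were at least 0.5 higher and 16.1% at least 0.5 lower. The proteasome genes gave 7 at least 0.5 higher, or 15.6%, and 1 at least 0.5 lower, or 2.22%. No proteasome gene reached 1 in either direction, whereas 10.1% of all genes were at least 1 higher and 6.58% at least 1 lower. The quartiles of the proteasome genes lay at 0.078 and 0.41, and those of all genes at -0.27 and 0.47.

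With CNT-1 nearly all of the genes lay slightly above control. The median was 0.12 over the cap, 0.064 over the core and 0.086 over the assembly factors, against -0.043 over all genes. Of the 45 genes 40 lay above control, or 88.9%, where 42.1% of all genes did. All 17 cap subunits and all 6 assembly factors were among them, with 12 of 16 core subunits. The highest value was 0.24, for Psmd1, so no proteasome gene was at least 0.5 higher, a size that 4.97% of all genes reached. On the lower side 2 genes were at least 0.5 below control, both in the core, where 8.19% of all genes were. None reached 1, against 1.16% of all genes on the higher side and 2.15% on the lower side. The share of all genes above 0 in this comparison moved with the probe set: with only the probes within 0.1 of 0 in the control it was 49.6%, and 40 of 44 proteasome genes lay above 0. The negative-control probe was at 0.16 in the control, -0.11 in CNT-1 and 0.053 in CNT-2. Of the 54 proteasome probes 53 lay within 0.1 of 0 in the control, or 98.1%, compared with 72.6% of all gene probes. The shares of all genes at least 0.5 or 1 from control, with CNT-1 or CNT-2, were not recomputed for such probes alone.

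**Figure D1:**
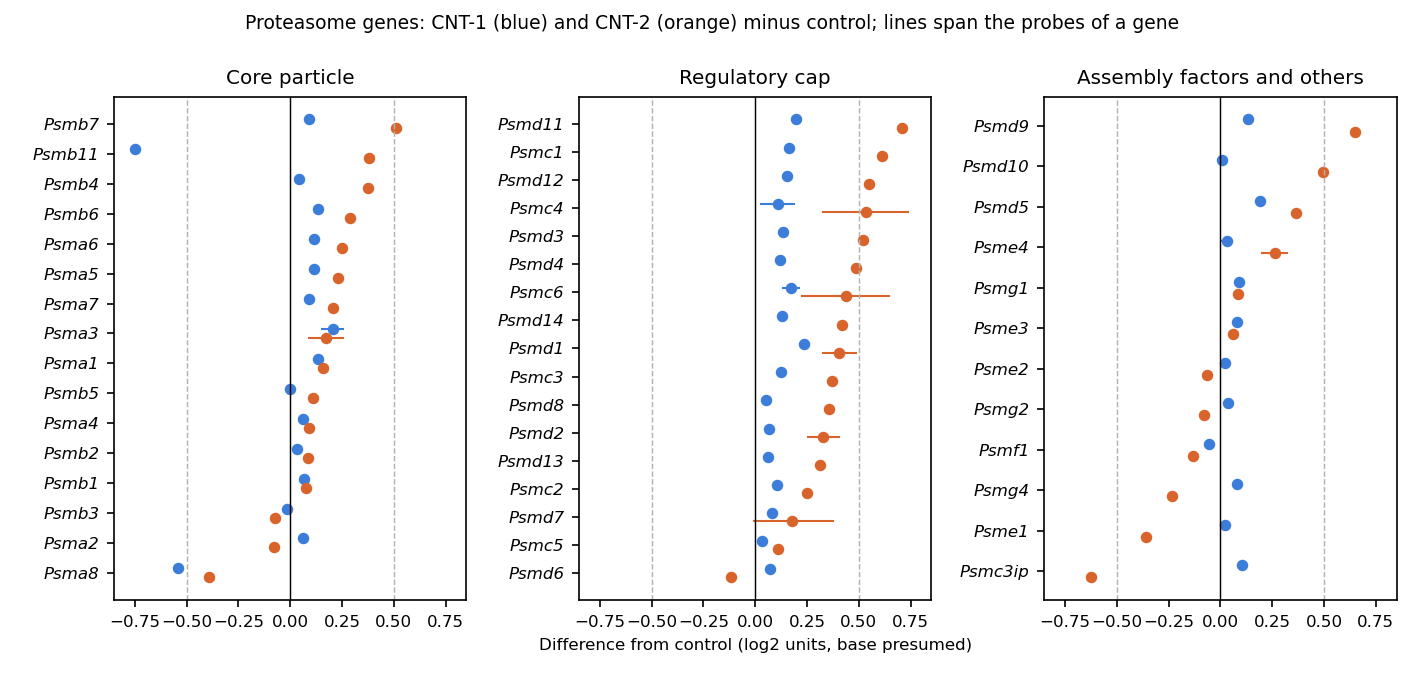
Difference from control (log2 units, base presumed) of each proteasome gene in CNT-1 (blue) and CNT-2 (orange), in panels for the core, the cap and the other members. A point is the mean over the probes of a gene, a line spans its lowest and highest probe, and dashed lines mark 0.5 in either direction; cap subunits reach 0.71 with CNT-2 and 0.24 with CNT-1.

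The scaling of the columns to each other decided the sign of part of these values. Centring each column on its 75th percentile moved the all-gene median by -0.44 for CNT-2, and centring on the 10 spike-in probes, which report added RNA, moved it by -0.23. In the deposited values those spike-in probes lay 0.23 ± 0.10 (SD over probes) above control in CNT-2 and -0.046 ± 0.073 in CNT-1. With the 75th percentile the CNT-2 medians became -0.033 for the cap, -0.27 for the core and -0.21 for assembly factors. With spike-ins they became 0.18, -0.059 and 0.0001. The 35 proteasome genes above control in CNT-2 became 9 with the 75th percentile, when 26.4% of all genes lay above it, and 24 with spike-ins, when 37.5% did. The split of 7 genes at least 0.5 higher and 1 at least 0.5 lower became 0 and 10 with the 75th percentile and 0 and 3 with spike-ins. Of all genes, 11.1% were then at least 0.5 higher and 41.3% lower with the 75th percentile, and 15.9% and 24.8% with spike-ins. In CNT-1 the class medians stayed above 0 under these scalings, with 31 and 42 of the 45 genes above control, where 32.8% and 50.3% of all genes were. The distance between cap and core does not change when a constant is added to a column. It was 0.24 with CNT-2 and 0.056 with CNT-1, the latter below the median probe SD of 0.076, which is a spread for single genes and not for medians. Over the genes with several probes alone the CNT-1 distance was -0.053. Quantile normalization, which reshapes the columns, reduced the CNT-2 distance to 0.096. It also changed the order of the classes: the CNT-2 median was 0.21 for assembly factors, 0.20 for the cap and 0.11 for the core, and all 6 assembly factors lay above control. In all, 8 of the 45 CNT-2 differences had the other sign after quantile normalization, 11 with spike-ins and 26 with the 75th percentile.

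**Figure D2:**
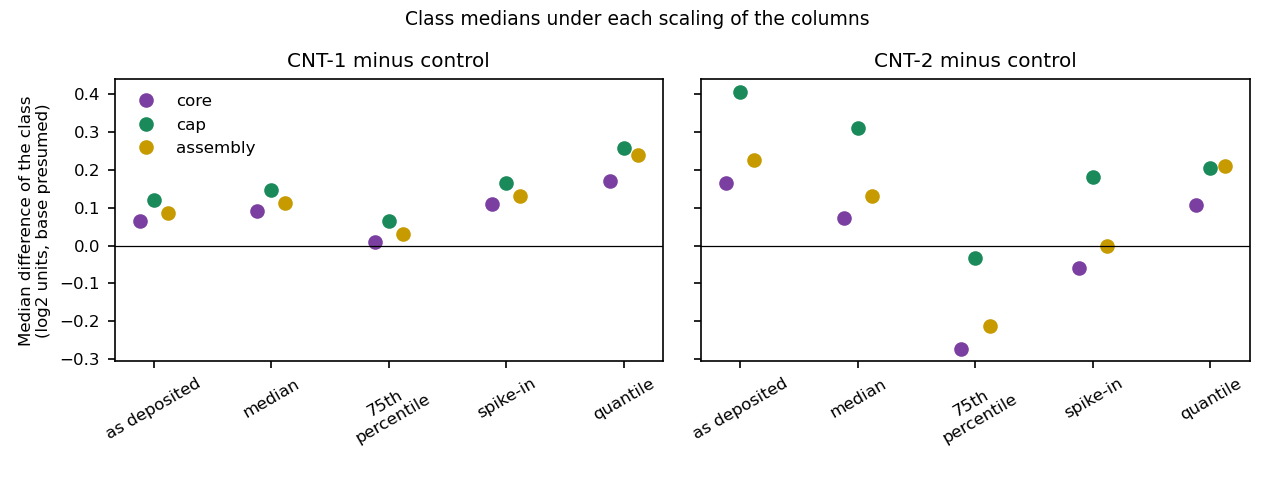
Median difference from control (log2 units, base presumed) of core, cap and assembly genes, with the columns as deposited and under each of 4 other scalings, for CNT-1 (left) and CNT-2 (right). In CNT-2 the cap median runs from -0.033 to 0.41 and the core median from -0.27 to 0.17, and the cap point lies above the core point under each scaling.

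The largest differences within the cap belonged to subunits of both its parts. Psmd11, a lid subunit that bridges cap and core, was at -0.027 in the control, 0.17 in CNT-1 and 0.68 in CNT-2, and thus 0.20 and 0.71 above control. Psmc1, an ATPase of the base, was at 0.013, 0.18 and 0.63 in the same order, differences of 0.16 and 0.61. The lid scaffold subunit Psmd12 was at 0.006, 0.16 and 0.55, differences of 0.16 and 0.55. For these genes the CNT-2 column was the highest of the 3 and CNT-1 lay in between. They were named for their large CNT-2 differences. All cap subunits lay above control with CNT-1, by at most 0.24, so this order followed from the choice. Psmd3, another lid subunit, was at 0.000, 0.13 and 0.52. Psmc4, an ATPase, lay 0.53 above control with CNT-2, but its 2 probes differed, at 0.33 and 0.74. These 5 were the cap subunits at least 0.5 higher with CNT-2, or 29.4% of the class, near the 23.4% of all genes.

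The other cap subunits were closer to control. Psmd4, a ubiquitin receptor, lay 0.49 above control with CNT-2 and 0.12 with CNT-1. Psmd14, the deubiquitinase that cuts ubiquitin from substrates at the cap, lay at 0.42 and 0.13, and its partner in the lid, Psmd7, at 0.18 ± 0.19 (probe SD, 3 probes) and 0.080 ± 0.010. The scaffold subunits Psmd1 and Psmd2 lay at 0.41 ± 0.11 and 0.33 ± 0.10 (probe SD, 2 probes each) with CNT-2. The ATPases ran from Psmc5 at 0.11, through Psmc2 at 0.25, Psmc3 at 0.37 and Psmc6 at 0.44 ± 0.29 (probe SD, 2 probes), to Psmc1. Their median was 0.40, and that of the 11 non-ATPase subunits was 0.41. Psmd8 was at 0.36 and Psmd13 at 0.31, both lid subunits. Psmd6, a further lid subunit, was the one member of the cap below control with CNT-2, at -0.12, and lay at 0.073 with CNT-1.

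Core subunits had a lower median than the cap in both comparisons, and ran from -0.39 to 0.51 with CNT-2, where the cap ran from -0.12 to 0.71. The 8 alpha subunits had a median of 0.17 with CNT-2 and 0.10 with CNT-1, and the 8 beta subunits 0.20 and 0.036. Psmb7, the catalytic subunit with trypsin-like activity, was at 0.031 in the control, 0.12 in CNT-1 and 0.54 in CNT-2. Its CNT-2 difference of 0.51 was the highest of the core and the only one in the core of at least 0.5. Psmb6, with caspase-like activity, was at -0.008, 0.13 and 0.28, and Psmb5, with chymotrypsin-like activity, at 0.002, -0.001 and 0.11. The non-catalytic subunit Psmb4 was 0.37 above control with CNT-2 and 0.041 with CNT-1. Among alpha subunits Psma6 lay at 0.25 ± 0.006 (probe SD, 2 probes), Psma5 at 0.23, Psma7 at 0.21, Psma3 at 0.17 ± 0.12 (probe SD, 2 probes), Psma1 at 0.16 and Psma4 at 0.090 with CNT-2. Psmb2 and Psmb1 were at 0.088 and 0.078, and Psma2 and Psmb3 were slightly below control at -0.080 and -0.073. The classes overlapped: 15 of 17 cap subunits lay above the core median with CNT-2, and 1 of 16 core subunits lay above the cap median.

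The core genes known for a single tissue, Psma8 and Psmb11, were the lowest of the core with CNT-1. Psma8, an alpha subunit of male germ cells, was at 0.084 in the control, -0.46 in CNT-1 and -0.31 in CNT-2. Psmb11, a beta subunit of the thymus, was at 0.31, -0.44 and 0.69. They were the 2 genes at least 0.5 lower with CNT-1, at -0.54 and -0.75. With CNT-2 Psma8 was again the lowest of the core, at -0.39, whereas Psmb11 lay within it, at 0.38. Psmb11 had the one proteasome probe further than 0.1 from 0 in the control. Without both, the core median was 0.078 with CNT-1 and 0.17 with CNT-2, and the 14 remaining core genes gave none at least 0.5 lower with CNT-1.

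**Figure D3:**
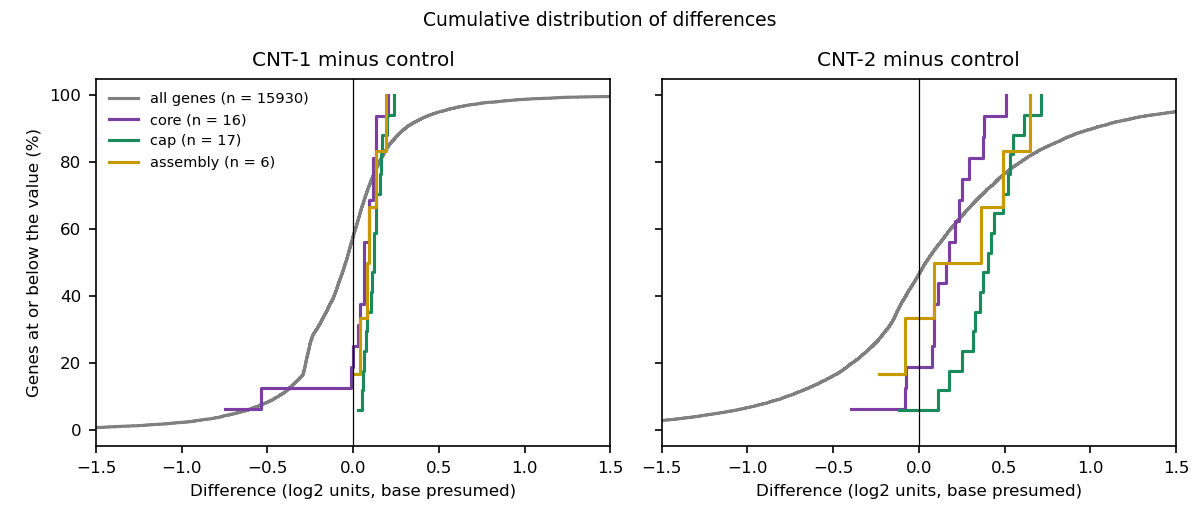
Cumulative share of genes (percent) by difference from control (log2 units, base presumed) for all 15930 genes, 16 core, 17 cap and 6 assembly genes, with CNT-1 (left) and CNT-2 (right). The cap curve lies to the right of the core curve over most of its range with CNT-2, while both end below 1, where 10.1% of all genes are still to come.

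Assembly factors are chaperones either of the cap's ATPase ring or of the core's alpha ring. In the deposited values those of the ATPase ring were above control with CNT-2. Psmd9 was at 0.005 in the control, 0.14 in CNT-1 and 0.65 in CNT-2, a CNT-2 difference of 0.65. Psmd10, known as gankyrin, was at -0.002, 0.005 and 0.49. Psmd5 was at 0.038, 0.23 and 0.40, a difference of 0.37 with CNT-2 and 0.19 with CNT-1. Of the chaperones of the alpha ring, Psmg1 lay at 0.086 with CNT-2, its dimer partner Psmg2 at -0.081 and Psmg4 at -0.23. The medians of these groups, 3 genes each, were 0.49 and -0.081. Their distance of 0.57 does not change with a constant shift of the column, and with CNT-1 it was 0.052. It depended on the shape of the columns: after quantile normalization it was 0.13 with CNT-2 and -0.050 with CNT-1. Psmg2 and Psmg4 then lay above control with CNT-2, at 0.14 and 0.32, and Psmd5, at 0.018, below Psmg1 at 0.037, so the groups overlapped. Quantile normalization gives the columns the same spread, and the control column was narrow, with 72.6% of gene probes within 0.1 of 0. It therefore also widens small differences between control values, and the CNT-1 difference of Psmg4 went from 0.081 to 0.54. Which scaling is right was not tested. Each of these 6 genes had 1 probe, so none has a probe SD.

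The activators outside the cap and the inhibitor showed no common direction. Psme1, a subunit of the interferon-inducible activator ring, was at 0.006 in the control, 0.028 in CNT-1 and -0.35 in CNT-2, or -0.36 from control. Its partner Psme2 lay at -0.065. The nuclear relative Psme3 lay at 0.062, and Psme4, a large single-chain activator, at 0.26 ± 0.084 (probe SD, 2 probes). Psmf1, a proteasome inhibitor in purified systems, lay at -0.13. With CNT-1 the 5 genes ranged from -0.056 to 0.080. Psmc3ip, outside these classes, was at -0.007, 0.097 and -0.63, and was the gene at least 0.5 lower with CNT-2.

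In the deposited values the immunoproteasome subunits that were left out by the rule lay below control in both comparisons. Psmb10 was at 0.002 in the control, -0.23 in CNT-1 and -0.92 in CNT-2. Psmb9 was at 0.010, -0.043 and -0.73, and Psmb8 at -0.001, -0.097 and -0.30. In each the CNT-2 column was the lowest. Each constitutive catalytic subunit was set against its immunoproteasome counterpart in the same column. The difference from control of Psmb7 minus that of Psmb10 was 1.43 with CNT-2 and 0.32 with CNT-1. Psmb6 minus Psmb9 was 1.03 and 0.19, and Psmb5 minus Psmb8 was 0.41 and 0.093. These distances also do not change with a constant shift, and each rests on 1 probe per gene. After quantile normalization the CNT-2 distances were smaller, at 0.59, 0.64 and 0.17 in the same order. Of the 8 measured genes for peptide loading on MHC class I, 2 were at least 0.5 higher with CNT-2, or 25% where 23.4% of all genes were. They were the chaperones Calr at 0.95 and Canx at 0.61 ± 0.040 (probe SD, 2 probes), and none was at least 0.5 lower, where 16.1% of all genes were. The peptide transporter subunits Tap1 and Tap2 were at 0.27 and -0.006.

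**Figure D4:**
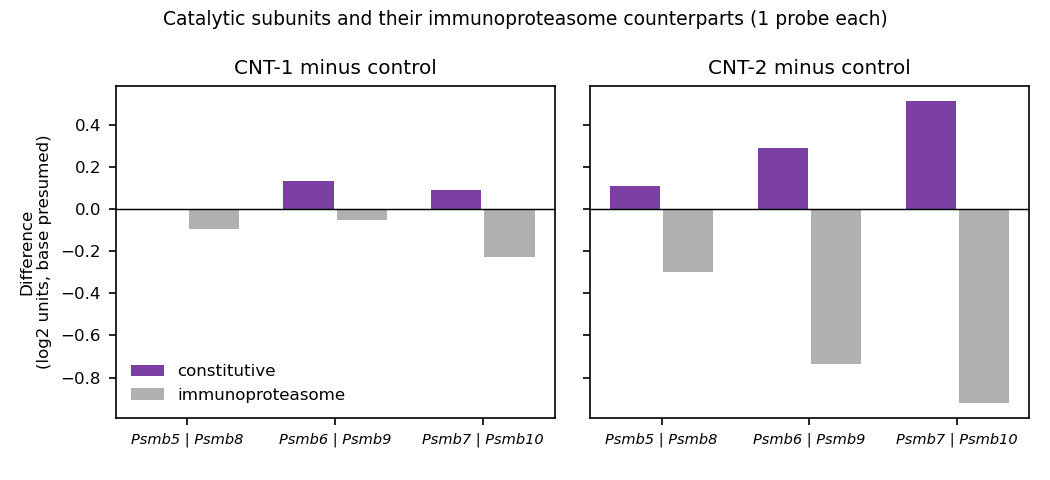
Difference from control (log2 units, base presumed; bars start at 0) of the constitutive catalytic subunits Psmb5, Psmb6 and Psmb7 (purple) and of Psmb8, Psmb9 and Psmb10 (grey) with CNT-1 (left) and CNT-2 (right). With CNT-2 the purple bars run from 0.11 to 0.51 and the grey bars from -0.30 to -0.92.

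Set directly against CNT-1, the CNT-2 column had nearly the same median difference over proteasome genes as over all genes. The median of CNT-2 minus CNT-1 was 0.15 over the 45 genes and 0.15 over all genes, and 33 of 45, or 73.3%, lay above 0, against 63.2% of all genes. It was 0.27 over the cap, 0.11 over the core and 0.084 over assembly factors. At least 0.5 higher were 3 genes, Psmb11 at 1.13, Psmd9 at 0.52 and Psmd11 at 0.51, where 24.5% of all genes were. Psmc3ip, at -0.73, was the one at least 0.5 lower, a size reached by 12.7% of all genes. Psmb11 alone reached 1, against 9.31% of all genes higher and 4.65% lower by that size. It is the thymus subunit with 1 probe, the one proteasome probe further than 0.1 from 0 in the control. The median over all 45 genes was below 0 under 75th percentile, spike-in and quantile scaling, at -0.24, -0.13 and -0.086. Over all genes the median was -0.23, -0.12 and -0.0014 in the same order. This comparison and those with control share columns, so they are not independent of each other.

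Other genes of the ubiquitin system were taken from lists of proteasome partners, ubiquitin and its enzymes, and the factors that carry substrates. The counts below are to be read against the 23.4% of all genes at least 0.5 higher and the 16.1% at least 0.5 lower with CNT-2. A list of proteasome partners without a Psm name had 8 measured genes. Of these 2, or 25%, were at least 0.5 higher with CNT-2 and none lower. Pdrg1, a partner by this list only, lay at 0.86 and Usp14, a deubiquitinase of the cap, at 0.57 ± 0.21 (probe SD, 2 probes). The ubiquitin receptor Adrm1 lay at 0.16, Akirin2, which brings proteasomes into the nucleus, at 0.34, the core maturation factor Pomp at -0.062 and the small lid subunit Shfm1 at -0.084. Of 13 shuttle and sorting factors 4, or 30.8%, were at least 0.5 higher and none lower. Both higher shares are near that of all genes. Zfand5, which can stimulate the proteasome, was at -0.014 in the control, 0.72 in CNT-1 and 1.84 in CNT-2, and differed from control by 0.74 and 1.86. Nploc4, a cofactor of the unfoldase Vcp, lay at 0.91, the shuttle factor Ubqln1 at 0.88 ± 0.014 (probe SD, 2 probes), Faf2 at 0.85, Rad23b at 0.39 ± 0.14 (probe SD, 2 probes) and Vcp itself at 0.33.

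A list named for the activation of NFE2L1, the transcription factor that raises proteasome genes when degradation is impaired, had 11 measured genes, of which 6, or 54.5%, were at least 0.5 higher with CNT-2 and none lower, against 23.4% and 16.1% of all genes. With the 75th percentile 3 were higher and 3 lower, against 11.1% and 41.3% of all genes. The list shares 4 measured genes with the shuttle factors, Ddi1, Ddi2, Vcp and Nploc4, and Nploc4 counts among the higher genes of both. NFE2L1 itself was under no array symbol, and its activity was not tested. The 6 higher members included Zfand2a, a proteasome-associated zinc finger protein, at 2.14. All the others were components of degradation from the endoplasmic reticulum: Herpud1 at 1.39 ± 0.17 (probe SD, 2 probes), Derl1 at 1.11, Nploc4, Sel1l at 0.83 and Syvn1 at 0.51 ± 0.20 (probe SD, 2 probes). The protease Ddi2, which cleaves NFE2L1, lay at 0.29 and the deglycosylase Ngly1 at -0.14 ± 0.15 (probe SD, 3 probes). With CNT-1 Zfand2a lay at 0.59 and was the one gene of the list at least 0.5 higher, or 9.09%, where 4.97% of all genes were. The related factor Nfe2l2 was at 0.23 with CNT-1 and -0.48 with CNT-2.

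Ubiquitin-conjugating enzymes lay on both sides of control with CNT-2, with 8 of 23, or 34.8%, at least 0.5 higher and 4, or 17.4%, at least 0.5 lower, against 23.4% and 16.1% of all genes. After quantile normalization 2, or 8.70%, were higher and 2, or 8.70%, lower, against 14.7% and 14.5% of all genes. Ube2l6, which conjugates the ubiquitin-like protein ISG15, lay at 1.06, Ube2j1, an enzyme of the endoplasmic reticulum, at 1.05 and Ube2d2 at 0.90. The enzymes of mitotic and DNA repair ubiquitination Ube2c and Ube2t lay at -0.88 and -0.96. A list of ubiquitin genes and activating enzymes had 5 measured genes, and the one at least 0.5 higher was Ube2m, at 0.67, which is not an activating enzyme but conjugates the ubiquitin-like modifier Nedd8, while the main activating enzyme Uba1 lay at -0.061 ± 0.078 (probe SD, 2 probes). Of 8 quality control ligases and cofactors 1 was at least 0.5 higher, Rnf126 at 0.53. With CNT-1 the medians of these lists lay between 0.060 and 0.092. Ube2l6, at 0.68, was the one gene in them at least 0.5 from control, where 4.97% of all genes were higher and 8.19% lower by that size.

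**Figure D5:**
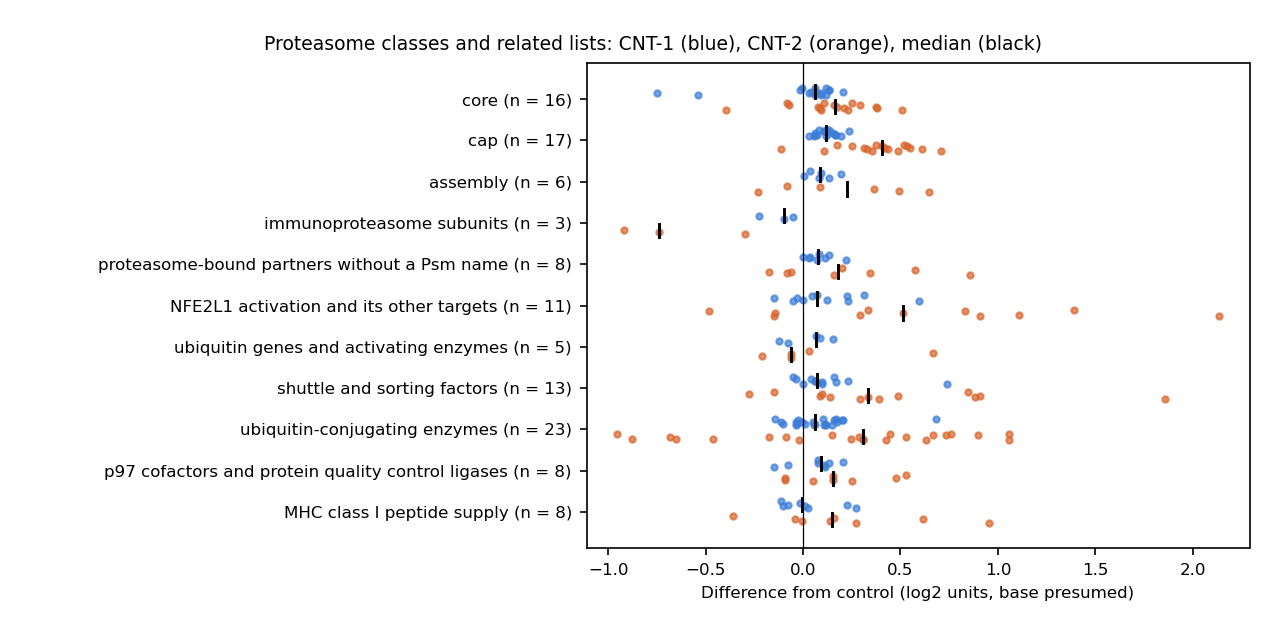
Difference from control (log2 units, base presumed) of each measured gene in the proteasome classes and in the related lists, with CNT-1 in blue and CNT-2 in orange; black bars are medians and n is the number of measured genes. The cap median of 0.41 with CNT-2 lies below that of the NFE2L1 list at 0.51 and above the shuttle factors at 0.33.

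Promoters of the genes were read because nearly all cap subunits lay above control in the deposited values. RefSeq sequences of assembly GRCr8 were matched by symbol for 40 of 45 genes, and the 250 bases before the annotated start were searched on both strands. TGACNNNGC, the core of the antioxidant response element that NFE2L1 and NFE2L2 bind, stood in 7 of 40, or 17.5%, against 10.5% of 21851 promoters of protein-coding genes. Of the 14 cap promoters 1 held it and of the 14 core promoters 4. CCGGAAGT, an ETS family core, stood in 7 of 40, against 3.94% of the protein-coding promoters. CCAAT stood in 19 of 40, or 47.5%, against 35.0%, with 9 of 14 core and 5 of 14 cap promoters. CACGTG, the E-box, stood in 5 of 40, against 6.16%, TATAAA in 4 of 40, against 12.1%, and TTTGGCGC, an E2F site, in 0 of 40, against 0.522%. Motifs were counted separately and their matches may overlap, and a match is a description and not a site in use. The 7 genes with TGACNNNGC had a median of 0.26 with CNT-2, and the 33 without it 0.23. The 3 with the highest CNT-2 values are shown, 5′ to 3′ on the strand of the gene, with matches to TGACNNNGC or its reverse complement in capitals. They are Psmd9 (chr12:39018265-39018514, minus strand, 0.65 with CNT-2), Psmd1 (chr9:94157721-94157970, plus strand, 0.41) and Psmb6 (chr10:55737638-55737887, plus strand, 0.29).
Psmd9: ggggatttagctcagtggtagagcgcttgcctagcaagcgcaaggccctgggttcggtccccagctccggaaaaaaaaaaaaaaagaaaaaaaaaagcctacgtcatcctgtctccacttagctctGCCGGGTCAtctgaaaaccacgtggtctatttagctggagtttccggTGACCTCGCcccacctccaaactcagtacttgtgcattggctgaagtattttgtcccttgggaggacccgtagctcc
Psmd1: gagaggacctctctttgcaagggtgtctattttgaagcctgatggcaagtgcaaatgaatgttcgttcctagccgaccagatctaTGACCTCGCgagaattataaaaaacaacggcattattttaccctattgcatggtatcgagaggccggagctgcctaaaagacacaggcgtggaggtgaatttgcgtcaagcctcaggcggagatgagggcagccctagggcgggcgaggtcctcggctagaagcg
Psmb6: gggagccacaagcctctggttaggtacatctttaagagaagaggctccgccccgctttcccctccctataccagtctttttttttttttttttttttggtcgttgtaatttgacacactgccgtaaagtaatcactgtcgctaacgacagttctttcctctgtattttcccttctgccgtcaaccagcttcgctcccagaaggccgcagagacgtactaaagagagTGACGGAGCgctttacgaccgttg
The cap chaperone gene Psmd9 holds 2 matches, which start 124 and 77 bases before the annotated start. That of the cap scaffold gene Psmd1 starts 165 bases before it and that of the catalytic gene Psmb6 24 bases before it.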

How the data were processed

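Per the labels' protocols, RNA of 3 NR8383 samples was measured on Agilent arrays with the single dye Cy3. Per the submitters' processing notes, the software was Agilent Feature Extraction 10.7.3.1. The deposited values, 1 column per group over 41103 probes, are treated as log2 differences. Their base was presumed from the range of -5.72 to 8.82, and no source used here gives the baseline or the normalization. Over all probes the median was 0.014 in the control column, -0.045 in CNT-1 and 0.064 in CNT-2. The direction is unstated, and higher values were read as more RNA. A column may be 1 array or a mean of several, so the number of arrays limits the precision to an unknown degree.

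Probes were named by the platform annotation: 20932 had 1 gene symbol, 0 several and 20171 none. Differences between columns were averaged over the probes of a gene, with Python 3.11.15 and pandas 2.3.3, after a check on simulated data. Genes at least 0.5 or 1 from the compared column were counted in place of a test. The genes, classes and lists were chosen with earlier results of these data known. Every proteasome gene, and of other genes only those on the lists, could be named. The alternatives were 4 scalings of the columns, the median over probes, restricted probes or genes, RefSeq symbols, no control subtraction, means, class limits and the log base. Without replicates, a median is said to have moved where it changed by at least the median probe SD.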

Additional observations from a re-analysis of the deposited data

How the results depend on the processing

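No paired analysis was possible because each group has 1 column. Of 177 recomputed class medians, median distances and counts, 141 moved by less than the median probe SD of the comparison or, for counts, by at most 1.5 times. That share is not a measure of stability, since part of it was fixed in advance. Centring leaves the distances between class medians as they are, and for 37 of the 45 genes the median over probes is that of 1 probe. The CNT-2 bound of 0.19 also exceeds the core median of 0.17. No proteasome gene at least 0.5 from control changed sign under an alternative. The centrings could not have changed such a sign, since they moved all differences from control by 0.44 or less. With 75th percentile centring, CNT-2 minus control became -0.19 for all proteasome genes, -0.27 for the core, -0.033 for the cap and -0.21 for assembly factors, with 0 genes at least 0.5 higher and 10 lower, and CNT-2 minus CNT-1 became -0.24. With spike-in centring these were 0.024, -0.059, 0.18 and 0.0001, with 0 higher and 3 lower, and -0.13, and 1 gene was lower with CNT-1. Median centring left 3 genes higher with CNT-2. Quantile normalization gave CNT-1 medians of 0.23 for all, 0.17 for the core, 0.26 for the cap and 0.24 for assembly factors with 3 genes higher, a CNT-2 cap median of 0.20 with 1 gene higher, and -0.086 for CNT-2 minus CNT-1. At least 0.5 higher with CNT-2 were 11.1% of all genes by 75th percentile, 15.9% by spike-in, 19.9% by median and 14.7% by quantile scaling. By 75th percentile and spike-in scaling 41.3% and 24.8% of all genes were lower. In CNT-1 13.3% of all genes were higher by quantile and 7.22% lower by spike-in scaling. The all-gene median of CNT-2 minus CNT-1 was -0.23, -0.12 and -0.0014 by 75th percentile, spike-in and quantile scaling. With the 8 genes of several probes, which hold 2 core and no assembly genes, the CNT-1 core median was 0.16, cap minus core was -0.053, 0 genes were lower with CNT-1, and with CNT-2 1 was higher and 0 lower. The counts lower with CNT-1 were 1 with probes near 0 in the control, 0 without control subtraction and 0 without Psma8 and Psmb11, an alternative chosen after seeing the data, as were the distances between classes, chaperones and catalytic subunits as results and the list counts under other scalings. With assembly factors taken as Psmg genes only their CNT-2 median was -0.081, and without Psmc3ip 0 genes were lower with CNT-2. If the values were natural logs, 17 genes would be at least 0.5 higher and 3 lower with CNT-2 in log2 units. RefSeq symbols added 1 gene to the 45, Psme3ip1, and left the class medians where they were. The cause of these changes was not tested. Most genes had 1 probe, and signal over background was not analysed here, which limits every single value.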
